A study of Mus musculus with 18 samples.

Results

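The genes described here encode the enzymes that make cholesterol, fatty acids and polyunsaturated fatty acids, together with the proteins that switch those enzymes on. The list was 35 named genes of the 54532 in the deposited count tables, chosen by symbol: 17 sterol enzymes (from Acat2 and Hmgcs1 to Dhcr7), 4 regulators (Insig1, Srebf1, Srebf2, Scap), 4 genes of fatty acid synthesis (Acly, Acaca, Acacb, Fasn), 4 desaturases (Scd1, Scd2, Fads1, Fads2) and 6 elongases (Elovl1, Elovl2, Elovl4, Elovl5, Elovl6, Elovl7). RNA sequencing was performed on cones sorted from 18 wildtype (WT) mouse retinas, with 1 library per retina. The labels do not say which libraries came from separate animals, so that p-values measure the spread between these libraries. The BALB/c mice are albino and were collected at postnatal day 21 (P21), with 6 control and 6 Txnip libraries, and the C57BL/6J mice were collected at P35, with 3 control and 3 Txnip libraries. All eyes were injected with adeno-associated virus (AAV) as neonates at P0. Every eye received a vector in which a synthetic cone promoter drives H2BGFP, the nuclear label used for sorting, and the Txnip eyes also received Txnip under the red opsin promoter and the controls received no second vector. C57BL/6J mice carry a null mutation of Nnt. Since strain and age go together in this design, a strain effect and an age effect cannot be told apart, and the difference is called C57BL/6J P35 against BALB/c P21 throughout. The comparisons ask how the 2 strains and ages differ and what added Txnip, a regulator of glucose uptake, does to gene expression in WT cones.

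Cells build sterols from acetyl-CoA through mevalonate and squalene, and they build fatty acids from acetyl-CoA through malonyl-CoA. When sterols run low, the escort protein SCAP carries the SREBP transcription factors to the Golgi for activation, INSIG proteins hold this complex back when sterols are plentiful, and SREBP then turns on most of the enzymes of both routes. Photoreceptors are known for outer segment membranes that are very rich in polyunsaturated fatty acids, and ELOVL4 and ELOVL2 lengthen the chains that those membranes contain.

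Assigned counts per library ranged from 647712 to 5172156. Txnip had 0 to 3 counts in the control libraries and 663 to 8536 in the Txnip libraries. All 12 cone marker genes had counts in every library, and together they took 3.71% to 9.76% of the counts. Markers of pigment epithelium, microglia, endothelium and blood were scarce. The summed counts of 5 pigment epithelium markers took at most 0.00117% of counts in a library, those of 6 microglia markers at most 0.00275%, those of 4 endothelial markers at most 0.00317% and those of 5 blood markers at most 0.00318%. Within these lists, Csf1r (5 to 98 counts) and Alas2 (6 to 103 counts) were at 0 in no library, Kdr was at 0 in 1 library and Lrat in 3, and each of the other 16 markers was at 0 in at least 8 of the 18 libraries. Libraries stood apart within groups. In C57BL/6J the 6 bipolar cell markers summed to 0.0370% of counts in control library 1 and to 0.0436% in Txnip library 2, against at most 0.0148% in each of the other 16 libraries. The 9 rod genes summed to 2.25% in control library 1, against 0.813% and 1.21% in control libraries 2 and 3, to 1.55% in Txnip library 2, against 1.43% and 0.983% in Txnip libraries 1 and 3, and to between 0.980% and 1.21% in BALB/c libraries. Genes at the ribosomal RNA locus of chromosome 17 took 27.5% of counts in C57BL/6J control library 2, against 3.27% and 6.44% in libraries 1 and 3, and 5.70% in C57BL/6J Txnip library 1, against 26.9% and 20.2% in libraries 2 and 3. These 2 libraries were also the farthest from the others of their group over all genes, with a chi-square per degree of freedom of 65.8 and 65.9 for control library 2 (16.9 between libraries 1 and 3) and of 80.4 and 47.4 for Txnip library 1 (18.5 between libraries 2 and 3). In BALB/c the same locus genes took 8.70%, 6.07% and 6.00% in BALB/c control libraries 2, 4 and 5, against 14.98% to 15.7% in the other 3 and 11.99% to 16.3% in BALB/c Txnip libraries. Libraries 4 and 5 had a chi-square per degree of freedom of 13.7 to 24.4 against libraries 1, 3 and 6. Values without these libraries are given beside the results below whose calls change without them.

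Promoter sequences were examined because the SREBP factors act through a short sterol regulatory element. RefSeq start-site windows (250 bases before to 50 bases after the start, mouse build GRCm38.p6) were matched for 29 of the 35 genes by symbol, giving 37 windows. The letters TCACNCCAC, one form of the sterol regulatory element, were searched on both strands, and so was CCAAT, the box bound by NF-Y, a frequent partner of SREBP. The element was found in 1 of 37 windows (2.70%), that of Hmgcs1, against 1.24% of all 32851 windows. CCAAT was found in 23 of the 37 windows (62.2%), against 37.4% of all windows. Counted by gene, 22 of the 29 matched genes had a CCAAT box (75.9%), against 41.1% of 27025 genes. The searched motifs share no letters with each other in the windows shown, and a match describes the sequence and not binding. The windows below belong to the 3 genes that differed between strains with and without Txnip (Hmgcs1, Acacb and Elovl1) and to Srebf2, which had the smallest p-value in the BALB/c Txnip comparison. All 5 windows are on the plus strand and are written 5′ to 3′, with motif matches in capitals (ATTGG is CCAAT read on the other strand).
Hmgcs1, chr13:119690101-119690400: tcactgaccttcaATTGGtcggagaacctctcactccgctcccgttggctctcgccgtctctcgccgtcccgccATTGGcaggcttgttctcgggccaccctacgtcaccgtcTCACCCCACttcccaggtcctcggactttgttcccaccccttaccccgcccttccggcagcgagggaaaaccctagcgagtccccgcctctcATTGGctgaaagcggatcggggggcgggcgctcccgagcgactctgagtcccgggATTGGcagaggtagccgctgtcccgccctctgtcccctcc
Acacb, chr5:114165268-114165567: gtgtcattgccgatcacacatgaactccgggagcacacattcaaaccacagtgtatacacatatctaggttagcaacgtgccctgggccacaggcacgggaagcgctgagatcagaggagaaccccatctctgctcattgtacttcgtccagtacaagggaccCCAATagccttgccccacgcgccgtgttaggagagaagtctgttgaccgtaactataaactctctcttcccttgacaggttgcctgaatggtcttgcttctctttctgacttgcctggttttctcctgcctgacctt
Elovl1, first start, chr4:118427843-118428142: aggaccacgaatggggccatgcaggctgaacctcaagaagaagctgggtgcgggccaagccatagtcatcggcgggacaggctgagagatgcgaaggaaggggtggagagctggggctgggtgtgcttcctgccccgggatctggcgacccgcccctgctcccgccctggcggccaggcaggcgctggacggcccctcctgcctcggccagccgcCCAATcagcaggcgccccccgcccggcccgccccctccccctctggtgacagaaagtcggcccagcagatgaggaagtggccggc
Elovl1, second start, chr4:118429451-118429750: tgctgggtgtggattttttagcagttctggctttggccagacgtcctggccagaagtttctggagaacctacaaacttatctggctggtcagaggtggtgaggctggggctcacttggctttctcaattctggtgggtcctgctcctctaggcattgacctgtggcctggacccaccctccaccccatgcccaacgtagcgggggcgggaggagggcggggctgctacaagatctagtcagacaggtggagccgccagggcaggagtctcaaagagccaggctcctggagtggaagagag
Srebf2, chr15:82147019-82147318: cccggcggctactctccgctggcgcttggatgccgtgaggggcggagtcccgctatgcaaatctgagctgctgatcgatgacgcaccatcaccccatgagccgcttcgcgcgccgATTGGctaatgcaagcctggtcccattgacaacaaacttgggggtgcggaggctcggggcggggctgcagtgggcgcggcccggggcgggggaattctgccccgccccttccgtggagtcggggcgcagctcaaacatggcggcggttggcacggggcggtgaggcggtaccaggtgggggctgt
The sterol element of Hmgcs1, TCACCCCAC, began at -137 from the start site on the plus strand, and the same window held 4 CCAAT matches. The Acacb and Srebf2 windows held 1 CCAAT match each. The first Elovl1 window held 1, and the second held none of the letters searched.

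Transcript levels in control cones were compared between genes as CPM (counts scaled to the library size after TMM normalization over the genes tested), divided by exon length (CPM per kb). Exon length is that of all annotated exons of a gene together. For Acaca it was 17074 bases against 9513 for the longest transcript, for Msmo1 6144 against 2969 and for Scd2 5453 against 5455. Levels of genes like Acaca and Msmo1 may thus be understated against other genes. Elovl4, Acly and Elovl2 were at the top. In BALB/c controls, Elovl4 had the highest level at 175 ± 21.1 CPM per kb (SD, n = 6), followed by Acly at 145 ± 14.1, whose product ATP citrate lyase makes cytosolic acetyl-CoA, and by Elovl2 at 141 ± 18.7. The ranges of these 3 genes overlapped, and they ranked 166, 237 and 242 among the 14751 genes tested. In C57BL/6J controls, the order was Elovl2 at 169.8 ± 32.8 (SD, n = 3), Elovl4 at 141 ± 21.0 and Acly at 98.8 ± 22.6. There Elovl2 and Elovl4 overlapped, and Acly (74.2 to 119) was below the lowest Elovl4 value of 121. The median of the 35 genes was 10.7 CPM per kb in BALB/c controls and 9.72 in C57BL/6J controls, and that of all genes tested was 5.11 and 5.14. Of the 35 genes, 26 were above the median of all genes in BALB/c controls and 28 were in C57BL/6J controls.

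**Figure D1:**
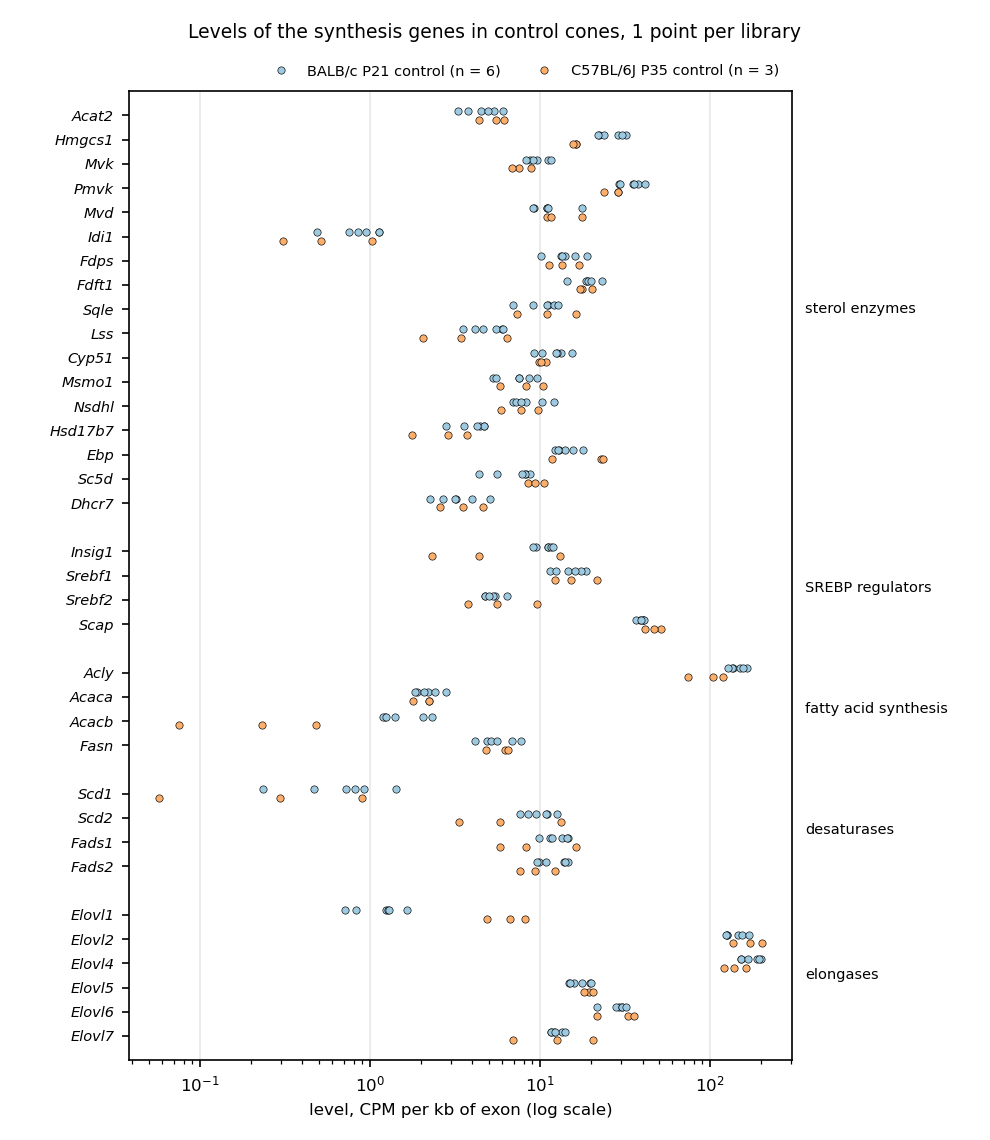
Levels of the 35 genes in CPM per kb of exon (log axis) in the 6 BALB/c P21 control libraries (blue) and the 3 C57BL/6J P35 control libraries (orange), 1 point per library, grouped by role. Elovl2, Elovl4 and Acly lie to the right of all others, and Acacb and Elovl1 are the genes whose points separate most between the strains.

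Among the sterol enzymes, levels in BALB/c controls differed along the route. Hmgcs1, which makes HMG-CoA, stood at 26.5 ± 4.48 CPM per kb (SD, n = 6), above the acetyl-CoA thiolase Acat2 at 4.64 ± 1.00. Of the mevalonate enzymes, the kinase Mvk stood at 9.69 ± 1.34, the phosphomevalonate kinase Pmvk at 34.7 ± 4.79, the decarboxylase Mvd at 11.5 ± 3.09 and the isomerase Idi1 at 0.881 ± 0.245. Farnesyl diphosphate synthase (Fdps) and squalene synthase (Fdft1) stood at 14.3 ± 2.98 and 19.0 ± 2.81. The 9 enzymes that convert squalene to cholesterol (Sqle, Lss, Cyp51, Msmo1, Nsdhl, Hsd17b7, Ebp, Sc5d and Dhcr7) had means between 3.39 (Dhcr7) and 14.2 (Ebp). Pmvk and Hmgcs1 had the highest levels per length and their ranges overlapped, while Idi1 had the lowest level, below the range of each of the other 16. Some of these values carry a limit from counting. The counting ignored strand and gave a read pair to each gene it overlapped, so that Fdft1, which shares 18.3% of its exonic bases with Ctsb (46330 counts in all libraries against 4357 for Fdft1), Fdps, which shares 26.7% with Gm43738, and Hmgcs1, which shares 12.1% with Gm48342, may include reads of the neighbour. Acat2 matches Acat3 over 65.6% of its longest transcript at 95% identity or more, and reads of these copies could not be assigned with certainty.

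The regulators and the fatty acid genes are given next. In BALB/c controls Scap stood at 39.3 ± 1.57 CPM per kb (SD, n = 6), Srebf1 at 15.1 ± 2.83, Insig1 at 10.7 ± 1.17 and Srebf2 at 5.26 ± 0.624. Scap shares 13.2% of its exonic bases with 5830462I19Rik on the other strand (2587 counts in all libraries against 15836 for Scap), so that it may include reads of that neighbour. Fatty acid synthase (Fasn) stood at 5.70 ± 1.33. The acetyl-CoA carboxylases were low, with Acaca, the cytosolic form, at 2.20 ± 0.351 and Acacb, the mitochondrial form, at 1.57 ± 0.488. Among the desaturases, the delta-5 and delta-6 enzymes Fads1 and Fads2 stood at 12.6 ± 1.87 and 12.1 ± 2.29. The stearoyl-CoA desaturase Scd2 stood at 9.96 ± 1.80, and its relative Scd1 at 0.766 ± 0.410. The other elongases were Elovl6 at 28.5 ± 3.60, Elovl5 at 17.2 ± 2.33, Elovl7 at 12.5 ± 1.01 and Elovl1 at 1.16 ± 0.339. Scd1 had 0 counts in BALB/c Txnip library 6, the shallowest, where 3 counts, the floor used here, would be 4.65 CPM. Such floors cover counting error only.

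Control cones of the 2 strains and ages differed in 4 of the 35 genes (11.4%), tested in a single fit across all 14751 genes and 18 libraries with edgeR's quasi-likelihood test and Benjamini-Hochberg adjustment. Elovl1 was higher in C57BL/6J, and Acacb, Acly and Hmgcs1 were lower. The share called among all genes was 17.5%, with 8.03% higher and 9.52% lower, so that these genes were not called more often than genes at large. The median log2 difference was -0.06 over the 35 genes and -0.00 over all genes. By group, 1 of 17 sterol enzymes, 0 of 4 regulators, 2 of 4 fatty acid synthesis genes, 0 of 4 desaturases and 1 of 6 elongases was called. At an unadjusted p under 0.05 there were 8 of the 35 genes (22.9%), against 31.1% of all genes. The control groups did not overlap in either direction for 2749 of all 14751 genes tested. In the list this held for the 4 called genes and also for Pmvk and Scap, which were not called.

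Elovl1, an elongase of saturated and monounsaturated very long chains, had the lowest adjusted p of the list. Its CPM was 1.94 at the lowest, 3.42 at the median and 4.47 at the highest in the 6 BALB/c control libraries, and 22.3, 13.2 and 18.02 in C57BL/6J control libraries 1, 2 and 3. Every C57BL/6J library was above every BALB/c library. The difference was 5.61-fold (log2 2.49, SE 0.34, adjusted p = 1.73e-05). The BALB/c values rest on 4 to 15 counts per control library. In the BALB/c libraries alone Elovl1 did not pass the filter on low counts, and it was not tested with at least 10 counts in every library. Of the exonic bases of Elovl1, 1.94% overlap Cdc20 on the other strand, a gene with 16 counts in all libraries.

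Acacb makes malonyl-CoA at the mitochondrial surface, where it restrains fatty acid oxidation. Its CPM was 11.4, 12.7 and 22.3 at the lowest, median and highest in BALB/c controls and 0.72, 4.65 and 2.22 in C57BL/6J control libraries 1, 2 and 3, with no overlap. The level was 5.97-fold lower in C57BL/6J (log2 -2.58, SE 0.47, adjusted p = 0.000422), resting there on 2 to 13 counts per library. Library 2 had the highest of the 3 values, and without it the log2 difference was -3.30 (adjusted p = 0.00025). Acaca differed by -0.09 (SE 0.22, adjusted p = 0.829).

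Hmgcs1 had 100.5, 121 and 148 CPM at the lowest, median and highest in BALB/c controls. The C57BL/6J control libraries had 74.6, 74.5 and 72.1 CPM, all below the BALB/c range and close to each other. Hmgcs1 was 1.65-fold lower (log2 -0.72, SE 0.15, adjusted p = 0.00184). It was called in every one of the 27 alternative settings tried, with log2 differences between -0.80 and -0.59.

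Acly had 675, 756 and 863 CPM at the lowest, median and highest in BALB/c controls and 392, 626 and 547 CPM in C57BL/6J control libraries 1, 2 and 3. The groups did not overlap, and library 1, which has the most rod and bipolar marker RNA, was the lowest. Acly was 1.46-fold lower (log2 -0.55, SE 0.15, adjusted p = 0.0162). Without C57BL/6J control library 1 the log2 difference was -0.40 (adjusted p = 0.103). Acly was also highest in the BALB/c control libraries with the least ribosomal RNA locus counts, at 792, 863 and 826 CPM in libraries 2, 4 and 5, against 675 to 720 CPM in libraries 1, 3 and 6. Without libraries 2, 4 and 5 the difference was -0.42 (adjusted p = 0.149).

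Among genes that were not called, Pmvk differed by -0.36 (SE 0.16, adjusted p = 0.128), Elovl4 by -0.31 (SE 0.13, adjusted p = 0.1005), Elovl2 by 0.27 (SE 0.16, adjusted p = 0.259) and Scap by 0.25 (SE 0.11, adjusted p = 0.136). DESeq2 called 6 of the 35 genes, adding Elovl4 and Scap, the gene with the overlapping neighbour. It called 2830 of all 54532 genes (5.19%), a total that includes genes without counts. The values of Insig1 and Scd2 depended on which C57BL/6J control libraries were included. Insig1 had 28.0, 34.5 and 37.1 CPM at the lowest, median and highest in BALB/c controls, and 40.3, 7.16 and 13.6 CPM in C57BL/6J control libraries 1, 2 and 3. Scd2 had 41.3, 55.2 and 68.3 CPM in BALB/c controls and 72.0, 18.3 and 31.6 CPM in C57BL/6J controls. For both genes, library 1 was above the BALB/c range while libraries 2 and 3 were below it. Without library 1, Insig1 was lower in C57BL/6J (log2 -1.67, SE 0.27, adjusted p = 0.000152), and so was Scd2 (log2 -1.13, SE 0.24, adjusted p = 0.00193), and 7 of the 35 genes were called (20%), against 14.6% of all genes. Insig1 differed by -0.72 (adjusted p = 0.138) and Scd2 by -0.43 (adjusted p = 0.298) with all libraries. Without library 2, the lowest for both genes, the differences moved the other way, to -0.34 for Insig1 (adjusted p = 0.452) and -0.11 for Scd2 (adjusted p = 0.799). Library 1 also had the most Müller glia marker RNA among the C57BL/6J controls: the 8 markers summed to 0.118%, 0.0322% and 0.0667% of counts in libraries 1, 2 and 3, against 0.0954% to 0.111% in BALB/c controls. The 7 amacrine markers summed to 0.0363%, 0.0123% and 0.0112%. Of the Müller glia list, Clu took most of the counts, and Kcnj10 was at 0 in 7 of 18 libraries. The part of these marker RNAs in the result was not tested. In bulk RNA, fewer cells of a type and less RNA per cell cannot be told apart.

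**Figure D2:**
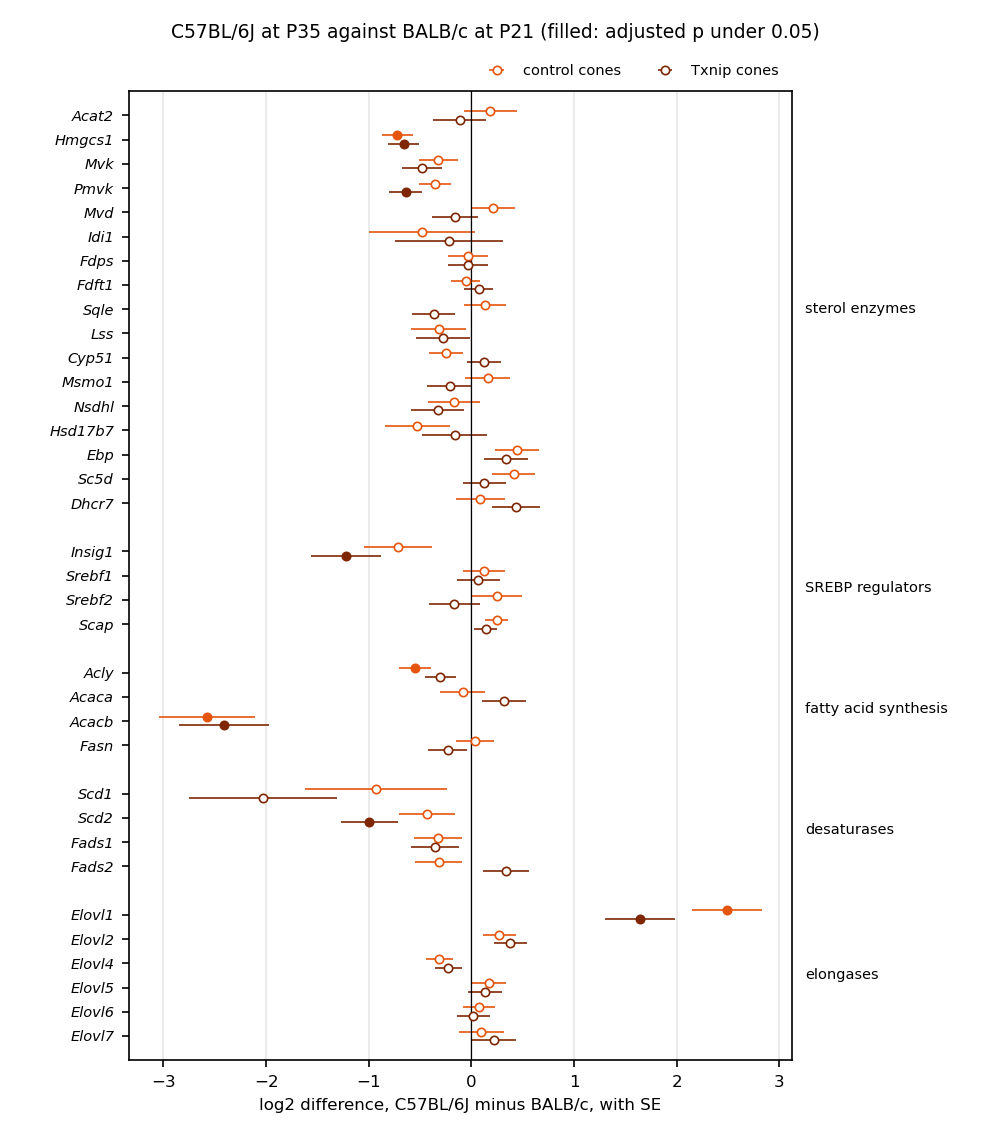
Log2 differences of the 35 genes between C57BL/6J P35 and BALB/c P21 cones with SE, for control libraries (orange, 3 against 6) and Txnip libraries (brown, 3 against 6), with filled points where the adjusted p was under 0.05. Elovl1 stands to the right and Acacb to the left in both comparisons, and most other genes lie within 1 log2 unit of 0.

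The same comparison in Txnip cones used other libraries (3 against 6) from the same fit. Here 6 of the 35 genes were called (17.1%), against 17.6% of all genes: Elovl1 was higher, against 8.24% of all genes, and Hmgcs1, Pmvk, Insig1, Acacb and Scd2 were lower, against 9.38% of all genes. The median log2 difference was -0.16 over the 35 genes and 0.05 over all genes. Called in the same direction in both comparisons were 3 of the 35 genes (Hmgcs1, Acacb and Elovl1), and 11.1% of all genes were. Elovl1 was 3.12-fold higher (log2 1.64, SE 0.34, adjusted p = 0.00172), with 1.55, 3.19 and 6.81 CPM at the lowest, median and highest in BALB/c Txnip libraries and 13.3, 10.3 and 14.3 CPM in C57BL/6J Txnip libraries 1, 2 and 3. Acacb was 5.32-fold lower (log2 -2.41, SE 0.44, adjusted p = 0.000421), with 14.1, 18.9 and 30.1 CPM in BALB/c and 1.63, 3.30 and 6.23 CPM in C57BL/6J, and without C57BL/6J Txnip library 3, the highest of these, the log2 difference was -3.07 (adjusted p = 0.000429). Hmgcs1 was 1.58-fold lower (log2 -0.66, SE 0.15, adjusted p = 0.00368), with 97.6, 131 and 138 CPM in BALB/c and 86.3, 67.2 and 84.7 CPM in C57BL/6J. For these 3 genes no C57BL/6J Txnip library fell within the BALB/c Txnip range. The Txnip groups of the strains did not overlap in either direction for 2644 of all 14751 genes tested.

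Pmvk, the kinase that follows Mvk on the mevalonate route, had 58.2, 66.3 and 74.4 CPM at the lowest, median and highest in BALB/c Txnip libraries and 53.2, 34.5 and 38.3 CPM in C57BL/6J Txnip libraries. It was 1.56-fold lower (log2 -0.64, SE 0.16, adjusted p = 0.0075). Insig1, which retains SCAP in the endoplasmic reticulum, had 22.5, 31.2 and 36.3 CPM in BALB/c and 10.04, 15.8 and 14.1 CPM in C57BL/6J, 2.33-fold lower (log2 -1.22, SE 0.34, adjusted p = 0.0157). Scd2 had 69.2, 79.6 and 92.5 CPM in BALB/c and 35.3, 50.3 and 34.1 CPM in C57BL/6J, 1.99-fold lower (log2 -0.996, SE 0.28, adjusted p = 0.0146). The groups did not overlap for any of these 3 genes. Without C57BL/6J Txnip library 1 the adjusted p was 0.0802 for Insig1 and 0.0636 for Scd2, and without library 3 it was 0.0809 for Scd2. The Müller glia markers summed to 0.111% to 0.124% in BALB/c Txnip libraries and to 0.0572%, 0.0772% and 0.0374% in C57BL/6J Txnip libraries 1, 2 and 3, and the amacrine markers to 0.0379% to 0.0518% against 0.0173%, 0.0227% and 0.0165%. The part of these marker RNAs in the lower Insig1 and Scd2 was not tested. Acly differed by -0.30 (SE 0.15, adjusted p = 0.185) in the Txnip libraries. Scd1, the relative of Scd2, was not called (log2 -2.03, SE 0.72, adjusted p = 0.0541). It had 0, 6.87 and 7.71 CPM at the lowest, median and highest in BALB/c and 1.36, 2.20 and 0.692 CPM in C57BL/6J, resting there on 3 to 6 counts per library, and the groups overlapped because of the BALB/c library at 0. DESeq2 called 7 of the 35 genes, adding Scd1 (adjusted p = 0.0283), which was called in 9 of 25 alternative settings. Of all 54532 genes, a total that includes genes without counts, DESeq2 called 2783 (5.1%).

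With C57BL/6J control library 1 and Txnip library 2, the libraries with the most bipolar marker RNA, both left out, 9 of the 35 genes (25.7%) were called in control cones (Hmgcs1, Insig1, Acly, Acacb, Scd2, Fads1, Elovl1, Elovl2 and Elovl4) and 8 (22.9%) in Txnip cones (Hmgcs1, Pmvk, Insig1, Acacb, Scd1, Scd2, Elovl1 and Elovl2), against 17.6% and 20.3% of all genes. In that setting Elovl2 was higher in C57BL/6J by 0.39 (adjusted p = 0.0426) in control and 0.58 (adjusted p = 0.00287) in Txnip cones, and Elovl4 was lower by -0.45 (adjusted p = 0.0231) in control cones. Elovl2 was lowest in the library left out of each C57BL/6J group, at 538, 684 and 798 CPM in control libraries 1, 2 and 3 and at 683, 415 and 706 CPM in Txnip libraries 1, 2 and 3.

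With the rod share of each library as a covariate, 6 of the 35 genes were called in control cones, adding Insig1 and Scd2, and 9 in Txnip cones, adding Scd1, Elovl2 and Elovl7, against 18.9% of all genes in each comparison. Leaving out the libraries that stood apart by their ribosomal RNA locus counts was tried after the data were seen. Without C57BL/6J control library 2 and Txnip library 1, 6 of the 35 genes were called in control cones, against 21.1% of all genes, and 6 in Txnip cones, against 15.6%. The 6 genes in Txnip cones were those called with all libraries. In control cones Lss and Ebp were called in addition, lanosterol synthase (Lss) lower by -0.84 (adjusted p = 0.00756) and the sterol isomerase Ebp higher by 0.70 (adjusted p = 0.00413), against -0.32 (adjusted p = 0.447) and 0.44 (adjusted p = 0.165) with all libraries. Without BALB/c control libraries 2, 4 and 5, 3 of the 35 genes were called in control cones (Hmgcs1, Acacb and Elovl1), against 10.4% of all genes.

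**Figure D3:**
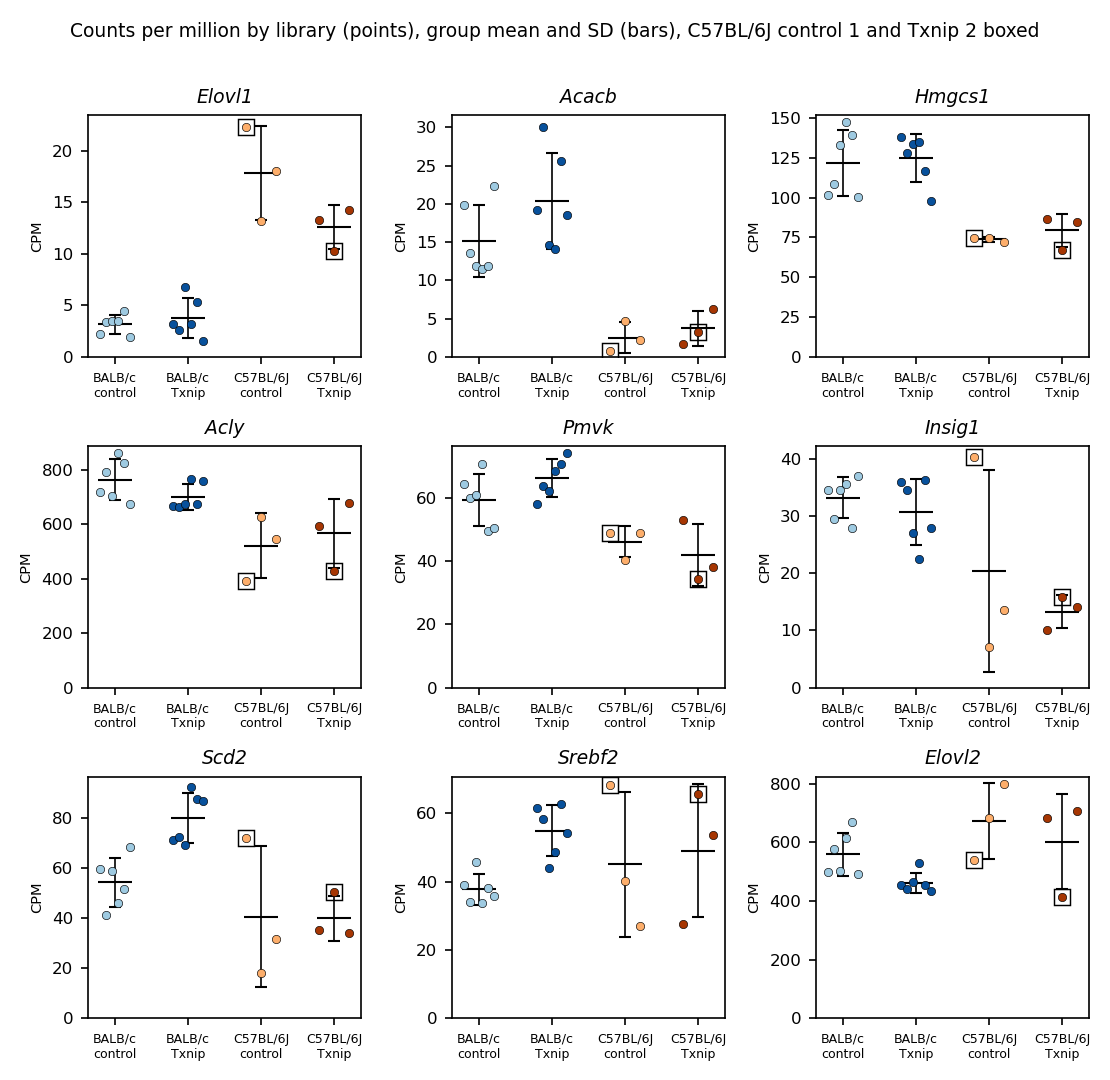
CPM of 9 genes in every library, with the mean and SD of each group (6, 6, 3 and 3 libraries) and boxes around C57BL/6J control library 1 and Txnip library 2. Elovl1 and Acacb separate the strains in all libraries, Insig1 and Scd2 in the boxed control library reach the BALB/c level, and Scd2 in BALB/c is higher in all Txnip than in all control libraries.

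For added Txnip in BALB/c cones (6 against 6 libraries), edgeR called 0 of the 32 genes tested. Of all 12017 genes tested, 0.0166% were called, that is 2 genes. Idi1, Scd1 and Elovl1 did not pass the filter on low counts there. At an unadjusted p under 0.05 there were 3 of the 32 genes (9.38%), against 11.4% of all genes: Srebf2, Scd2 and Elovl2. DESeq2 called 2 of the 35 genes, Srebf2 and Scd2, and 78 of all genes. The median log2 difference was 0.04 over the 32 genes and 0.00 over all genes, the genes ranged from -0.33 (Hsd17b7) to 0.53 (Srebf2), and the median SE was 0.13.

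Srebf2 encodes the SREBP that mainly drives sterol synthesis. It had 33.9, 37.0 and 45.9 CPM at the lowest, median and highest in BALB/c controls and 44.1, 56.3 and 62.8 CPM in BALB/c Txnip libraries. The ranges overlapped by 1 library on each side, and the log2 difference was 0.53 (SE 0.12, adjusted p = 0.106 with edgeR and 0.032 with DESeq2). Scd2 makes monounsaturated fatty acids. Its lowest, median and highest values were 41.3, 55.2 and 68.3 CPM in controls and 69.2, 79.6 and 92.5 CPM in Txnip libraries. All 6 Txnip libraries were above all 6 controls, which held for 1 of the 32 genes, while 0.699% of all genes did not overlap in either direction. The log2 difference of Scd2 was 0.52 (SE 0.13, adjusted p = 0.108 with edgeR and 0.0394 with DESeq2). Beside these 2 genes, the amacrine marker sum was 0.0279% to 0.0362% in BALB/c controls and 0.0379% to 0.0518% in BALB/c Txnip libraries, without overlap, and the Müller glia marker sum was 0.0954% to 0.111% and 0.111% to 0.124%. Their part in the values of Scd2 and Srebf2 was not tested. Elovl2 had 492, 538 and 671 CPM in controls and 434, 454 and 529 CPM in Txnip libraries, a log2 difference of -0.27 (SE 0.09, adjusted p = 0.223), and its ranges overlapped. The 3 control libraries with the least ribosomal RNA locus counts, 2, 4 and 5, held the 3 highest Elovl2 values (576, 614 and 671 CPM, against 497, 501 and 492 in libraries 1, 3 and 6) and the 3 lowest Scd2 values (41.3, 46.2 and 51.8 CPM, against 59.5, 58.7 and 68.3). Without these 3 libraries, edgeR called 0 of the 33 genes tested, against 0.0159% of all 12544 genes, and 3 of the 33 (Sqle, Srebf2 and Scd2) had an unadjusted p under 0.05, against 615 of all genes. There the log2 differences were -0.10 for Elovl2 (SE 0.08, adjusted p = 0.994), 0.32 for Scd2 (SE 0.13, adjusted p = 0.976) and 0.45 for Srebf2 (SE 0.15, adjusted p = 0.976).

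The sterol enzymes, many of them targets of SREBP-2, were examined next. Of the 16 tested in BALB/c, 10 had positive and 6 negative log2 differences, with a median of 0.04 and a range from -0.33 (Hsd17b7, SE 0.22) to 0.16 (Lss), and none had an unadjusted p under 0.05. Hmgcs1 differed by 0.05 (SE 0.11), Sqle by 0.15 (SE 0.13), Lss by 0.16 (SE 0.13), Fdft1 by 0.14 (SE 0.10) and Cyp51 by -0.12 (SE 0.12), and Insig1 differed by -0.11 (SE 0.15). Srebf1 differed by 0.09 (SE 0.14), Fasn by 0.16 (SE 0.15), Acaca by -0.22 (SE 0.15) and Acacb by 0.40 (SE 0.24). A p-value above the threshold does not show that a gene did not change.

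In C57BL/6J cones (3 against 3 libraries), 0 of the 33 genes tested were called, against 0.0154% of all 12974 genes, and Idi1 and Scd1 did not pass the filter. None of the 33 had an unadjusted p under 0.05, against 0.748% of all genes, and DESeq2 also called 0 of the list. The log2 differences ranged from -0.61 (Insig1) to 0.57 (Fads2 and Acacb), and the median SE was 0.28, against 0.13 in BALB/c. The smallest p-values belonged to Fads2 (0.57, SE 0.35) and Elovl1 (-0.50, SE 0.33). Fads2 had 18.4, 11.5 and 14.1 CPM in control libraries 1, 2 and 3 and 14.4, 26.1 and 24.7 CPM in Txnip libraries 1, 2 and 3, which overlapped. Srebf2 differed by 0.12 (SE 0.41) and Scd2 by -0.03 (SE 0.45), with 68.4, 40.1 and 26.9 CPM of Srebf2 in controls and 27.7, 65.7 and 53.8 CPM in Txnip libraries. In both groups Srebf2 was highest in the library with the most bipolar marker RNA. Without control library 2 and Txnip library 1, edgeR called 0 of the 32 genes tested, and 3 of them (Sqle, Lss and Ebp) had an unadjusted p under 0.05, against 1380 of all 13386 genes.

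**Figure D4:**
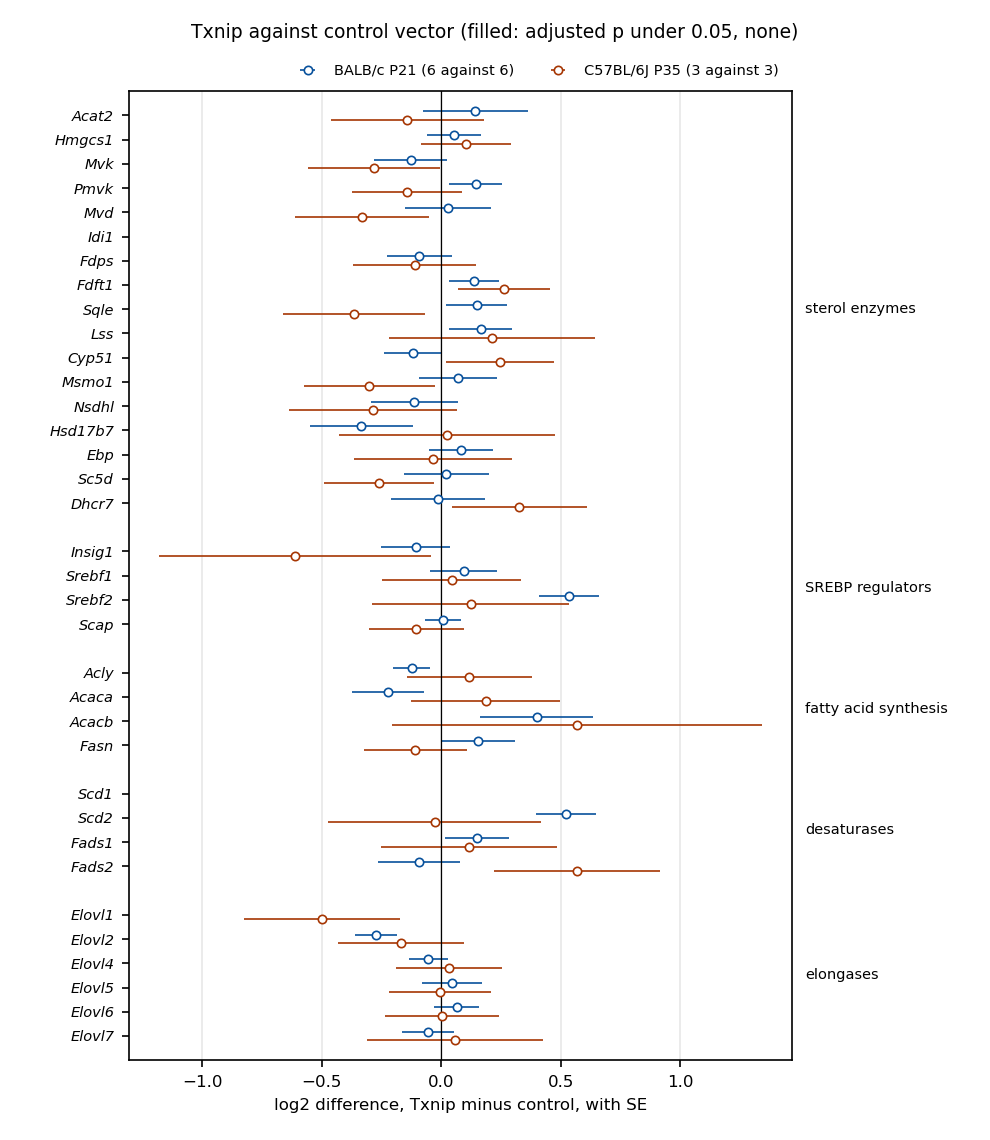
Log2 differences of the genes between Txnip and control cones with SE, in BALB/c P21 (blue, 32 genes tested, 6 against 6 libraries) and C57BL/6J P35 (brown, 33 genes tested, 3 against 3 libraries). No point is filled, since no adjusted p was under 0.05, and Srebf2 and Scd2 in BALB/c are the blue points farthest to the right.

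The Txnip effect itself did not differ detectably between the strains and ages. By the interaction term of the fit over all 18 libraries, 0 of the 35 genes and 0% of all 14751 genes were called, and 0 of the 35 genes had an unadjusted p under 0.05, against 706 of all genes. DESeq2 called 0 of the 35 genes, and so did the fit without C57BL/6J control library 2 and Txnip library 1, where 204 of 15203 genes were called (1.34%). In that fit 8 of the 35 genes had an unadjusted p under 0.05, against 2514 of all genes, and the smallest adjusted p was that of Sqle (-0.90, SE 0.27, adjusted p = 0.102). With all libraries, the difference of the effects (C57BL/6J minus BALB/c) was -0.57 for Scd2 (SE 0.38), -0.42 for Srebf2 (SE 0.35), 0.66 for Fads2 (SE 0.32) and -0.50 for Sqle (SE 0.29). With a median SE of 0.31 on the log2 scale, differences of the size seen for Scd2 and Srebf2 in BALB/c could not be resolved.

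Ratios of related genes within a library do not depend on its scaling, and 4 were compared between the control groups with two-sided exact permutation tests. Acaca to Acacb, per kb, was 0.914 to 1.95 in the 6 BALB/c controls and 23.8, 4.45 and 7.33 in C57BL/6J control libraries 1, 2 and 3, without overlap. The mean log2 ratio was 2.69 higher in C57BL/6J (exact p = 0.0238, the smallest that 6 against 3 can give, adjusted p = 0.0952 over 4 ratios). The 23.8 of library 1 rests on 2 counts of Acacb, under the 3 counts taken as the floor, and without that library the difference was 2.01. The same ratio was 0.440 to 1.42 in BALB/c Txnip libraries and 3.498 to 9.06 in C57BL/6J Txnip libraries. Scd2 exceeded Scd1 in every library, with ratios of 7.31 to 26.1 in BALB/c controls and 10.1 to 67.7 in C57BL/6J controls (exact p = 0.429, adjusted p = 0.730). The 67.7 rests on 1 count of Scd1 in C57BL/6J control library 3 and the 26.1 on 2 in BALB/c control library 2, both under that floor, and Scd2 matches Scd1 over 623 bases of its longest transcript at up to 95.5% identity, so that reads of these genes could not be assigned with certainty. Srebf2 to Srebf1 was 0.254 to 0.415 in BALB/c controls and 0.305 to 0.440 in C57BL/6J controls (exact p = 0.881, adjusted p = 0.881). Elovl5 to Elovl6 was 0.472 to 0.733 and 0.552 to 0.895 (exact p = 0.548, adjusted p = 0.730).

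Other genes of these routes were followed by a pair of lists. Of 20 genes of sterol regulation, uptake and efflux, 3 were higher and 1 lower in C57BL/6J control cones, and 3 were higher and 1 lower in Txnip cones, that is 20% in each, against 17.5% and 17.6% of all genes. Abcg1 and Abcg4, which export cholesterol, were higher in control cones by 0.51 (SE 0.13, adjusted p = 0.0107) and 0.46 (SE 0.13, adjusted p = 0.0197) and in Txnip cones by 0.40 and 0.68. Mbtps1, the first SREBP protease, was higher by 0.48 (SE 0.12, adjusted p = 0.00953) in control cones, and Mbtps2, the second, was lower by -0.87 (SE 0.27, adjusted p = 0.0297). Of 23 tested genes of fatty acid supply, activation and elongation, 1 was higher and 5 lower in control cones, and 2 were higher and 5 lower in Txnip cones, that is 26.1% and 30.4%. Hsd17b12, a reductase of the elongation cycle, was higher by 0.97 (SE 0.18, adjusted p = 0.000438) in control cones. The acyl-CoA synthetases Acsl1 and Acsl4 were lower by -0.80 and -1.72, the citrate carrier Slc25a1 by -1.13 and Mid1ip1, an activator of acetyl-CoA carboxylase, by -0.68. Several of these calls depended on which libraries were included. Without BALB/c control libraries 2, 4 and 5, 0 genes of the first list were higher and 1 lower in control cones. Of the second list 1 was higher and 3 lower, and 10.4% of all genes were called. The adjusted p was then 0.141 for Abcg1, 0.0947 for Abcg4, 0.0735 for Mbtps1, 0.0999 for Mbtps2 and 0.0743 for Acsl4. Without C57BL/6J control library 1 it was 0.0676 for Abcg1 and 0.150 for Mbtps2, and without library 2 it was 0.157 for Abcg4, 0.0515 for Acsl4, 0.0748 for Slc25a1 and 0.0601 for Mid1ip1. Without library 3 it was 0.0937 for Mbtps2, 0.128 for Acsl4 and 0.0935 for Slc25a1. Hsd17b12 and Acsl1 passed the threshold in every alternative run in control cones. In Txnip cones, 1 gene of the first list was higher and 0 lower without C57BL/6J Txnip library 1, where 12.5% of all genes were called. There Abcg1 (adjusted p = 0.0448 with all libraries) no longer passed under most alternatives. For Txnip, edgeR and DESeq2 called 0 genes of the lists in either strain. For BALB/c 2 of 20 and 8 of 21 genes tested (38.1%) had an unadjusted p under 0.05, against 11.4% of all genes, and without BALB/c control libraries 2, 4 and 5 these were 2 of 20 and 3 of 22 genes (13.6%), against 4.9% of all genes. In C57BL/6J 0 of 20 and 1 of 23 had one, against 0.748% of all genes.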

How the data were processed

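The authors sorted H2BGFP-labelled cones from dissociated retinas, per the study's methods and the labelling field, whereas the extraction field names antibody staining, and prepared libraries by a modified Smart-Seq2 protocol. Per the submitters' notes and the file headers, reads were aligned with STAR and counted with featureCounts 1.6.2 on Ensembl 94 (GRCm38.p6), without strand, with each read pair counted for every gene it overlapped. The deposited values are raw counts per gene and library. Tables of the authors' own DESeq2 comparisons, which hold fold changes and p-values, were not used.

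Counts were tested with edgeR 4.0.16 in R 4.3.3 (filterByExpr, TMM, quasi-likelihood, Benjamini-Hochberg threshold 0.05). Differences between strains and the interaction came from 1 fit over 18 libraries, and Txnip effects from 1 fit per strain. DESeq2 1.42.0, other filters and scalings, a rod covariate and each library left out in turn were alternatives. Leaving out BALB/c control libraries 2, 4 and 5, and C57BL/6J control library 2 with Txnip library 1, was added after the data were seen. CPM was scaled to the TMM-normalized size of each library. The library names as deposited carry a letter for each group (R for control, L for Txnip) and a number, which may mark the eye and the animal. In BALB/c these numbers equal the replicate numbers, and in C57BL/6J they share 1 and 3 only, for control library 1 with Txnip library 1 (r = -0.11 of their deviations) and control library 2 with Txnip library 3 (r = 0.39), and were not used for pairing. Ratios had 0.5 added to each count and were tested by exact permutation (SciPy 1.17.1). Near-identical copies were found with BLAST 2.17.0. The scripts were tested on simulated data. Totals were 647712 to 5172156 counts per library, and no replicates agreed within sampling noise (smallest chi-square per degree of freedom 1.91 over 36 pairs). By the rule for named genes, values in every library were given for genes called between control groups and those with the smallest p for Txnip. Pmvk, Insig1, Scd1, Scd2 and Elovl2 between strains were added after their values were seen. The genes, lists and tests were chosen with earlier results of these data known.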

Additional observations from a re-analysis of the deposited data

Results flagged for a closer look

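Of 70 groups of 6 libraries examined, that is each of the 35 genes in the BALB/c control and BALB/c Txnip groups, 2 held a library whose gap to its neighbour was large for the range of its group, and chance alone marks about 1 in 20 such groups. Mvd, the mevalonate decarboxylase, had 32.6 CPM in BALB/c control library 6, against 16.97 to 20.7 CPM in the other 5 libraries. Elovl2 had 529 CPM in BALB/c Txnip library 4, against 434 to 465 CPM in the other 5.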

How the results depend on the processing

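Of 647 alternative values for 27 pairs of a named gene and a comparison, 615 kept their direction and side of the threshold, 27 passed the threshold in addition, 5 no longer passed it and 0 changed sign. Lss, Ebp, Fads1, Scap and Elovl7, which are not among these pairs between strains, also passed the threshold in at least 1 alternative. In control cones, the 4 genes called between strains became 2 of 28 tested with at least 10 counts in every library. Of all 7887 genes tested there, 19.1% were called, and Elovl1 and Acacb were not tested because of the filter. Without C57BL/6J control library 1 and Txnip library 2, 9 genes of the list were called, against 17.6% of all genes. With each library left out in turn, 4 to 7 genes of the list were called in control cones (7 without C57BL/6J control library 1). The share of all genes was 10.4% to 18.9% in these fits and 14.6% without C57BL/6J control library 1. In Txnip cones 4 to 8 genes of the list were called, against 6 with all libraries, and the share of all genes was 11.9% to 18.7%. With rod share as a covariate, 6 and 9 genes of the list were called in control and Txnip cones, against 18.9% of all genes in each. The 0 genes called for Txnip in BALB/c became 2 with DESeq2 and 2 with all genes of at least 1 count (Srebf2 and Scd2), where 78 and 1400 of all genes were called, and 0 to 1 with each library left out (Scd2 without BALB/c Txnip library 1, adjusted p = 0.0351 with edgeR, where 258 of 12110 genes were called, 16 higher and 242 lower). The cause was not tested. The log2 ratio differences ranged, with each library left out, from 2.01 to 3.22 for Acaca to Acacb (2.01 without C57BL/6J control library 1), -0.19 to 1.18 for Scd2 to Scd1 (-0.19 without C57BL/6J control library 3), -0.074 to 0.19 for Srebf2 to Srebf1 (-0.074 without C57BL/6J control library 1 and -0.040 without BALB/c control library 2), and -0.10 to 0.25 for Elovl5 to Elovl6 (-0.10 without C57BL/6J control library 1). With the replicate number as a replicate block, 0 genes of the list were called for Txnip in BALB/c, in C57BL/6J and by the interaction. Libraries of the same replicate number did not deviate together (r from -0.06 to 0.10 in BALB/c and -0.11 to 0.08 in C57BL/6J, across genes), and 1 of 6 and 0 of 3 controls correlated best with the Txnip library of their own replicate number. In C57BL/6J the block and this check do not cover the numbers in the deposited library names, which differ from the replicate numbers. Across replicate numbers, C57BL/6J control libraries 1, 2 and 3 correlated best with Txnip libraries 2, 3 and 1 (r = 0.38, 0.39 and 0.44). No fit used these pairs as a block. The block was not run between strains, because numbers are nested in strain.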
